A study of Mus musculus with 4 samples.

Results

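Ghrelin is a peptide hormone made by endocrine cells of the gut, and here its gene Ghrl was followed together with Mboat4, which encodes the enzyme that acylates ghrelin, and Ghsr, which encodes the ghrelin receptor. These 3 genes were chosen by name, with the difference between mutant and control colon already known for Ghrl, so their levels are given as a description with no test. They are 3 of 23074 gene symbols with a usable estimate in every library, and 1 of the 3, Ghrl, passed the minimum of a mean of 0.5 FPKM over the libraries that was set for testing. FPKM count fragments per length of transcript and per total of mapped fragments. The study sequenced RNA of whole colon, a 2 cm piece dissected next to the caecum, from mice aged 6 weeks on a mixed strain background. The control group (2 libraries) had the genotype Nkx2.2flox/+, with Nkx2-2, a transcription factor gene, floxed on 1 allele and with no Cre. The mutant group (2 libraries) had the genotype Nkx2.2flox/flox; Villin-Cre/+, in which the Villin promoter drives Cre in the gut epithelium, so loss of Nkx2-2 and presence of Cre cannot be told apart by design. The labels do not give separate mice for the libraries, so any p measures the spread between these libraries, which may be technical.

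Ghrelin is best known as the hunger hormone of the stomach, where it is released by X/A-like cells, a type of enteroendocrine cell, and smaller numbers of ghrelin cells lie further down the gut. The gene encodes a longer precursor that is cut by prohormone convertases, and the enzyme encoded by Mboat4 attaches a medium-chain fatty acid to a serine near the start of the hormone. Acylated ghrelin activates the receptor encoded by Ghsr, a G protein-coupled receptor of pituitary, brain and some peripheral neurons. Nkx2-2 is a homeodomain factor of endocrine cells in pancreas and gut, and mice without it are known for extra ghrelin cells in the pancreas.

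Ghrl is read from the minus strand of chromosome 6 between 113666113 and 113669874 (mm9), and GENCODE vM1, on the same assembly, gives the transcript used here 5 exons with 527 bases and a coding sequence of 117 codons. The stretch that carries the acylation site is shown because it ties the hormone to its enzyme. It runs from codon 24, the first of the mature hormone, in exon 2 (chr6:113669325-113669354, mm9, minus strand), and the capitals mark the codon of serine 3 of the hormone, which is codon 26 of the precursor and the residue that the enzyme encoded by Mboat4 acylates.
Ghrl coding sequence from codon 24: ggctccAGCttcctgagcccagagcaccag
A further pair of sequences comes from the 250 bases before the start of Ghrl, shown because the mutated gene encodes a DNA-binding factor. Both strands were searched for TATAAA and TATATA, letters of a TATA box, and for AAGTG and AAGTA, the core letters of sites of NK2-class homeodomain proteins, the class of Nkx2-2. TATATA was found once, starting 32 bases before the start (chr6:113669889-113669918, mm9, minus strand), and 5.25% of 32851 RefSeq windows of 250 bases before a start (GRCm38.p6) hold it. AAGTA was found once, as its complement TACTT starting 123 bases before the start (chr6:113669980-113670009, mm9, minus strand), and 27.9% of the windows hold it. TATAAA and the core AAGTG had 0 matches, against 12.4% and 40.7% of the windows. Capitals mark the match in each.
Ghrl upstream, TATATA: cacaaggcttccTATATAaggagaagccgg
Ghrl upstream, AAGTA on the other strand: ggaaaaaaagagTACTTagttcccaaggaa
Such matches describe letters and not bound sites.

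As a check of the labels, Nkx2-2 stood at 0.724 and 0.609 FPKM in control 1 and control 2. It stood at 0.125 and 0.351 FPKM in mutant 1 and mutant 2. Each mutant was below each control, which held for 35.1% of all tested genes. The mutant values rest on 1 and 4.7 fragments, against 16.4 and 15.4 in the controls. The authors' deposited intervals overlap, with upper mutant bounds of 0.375 and 0.677 FPKM and lower control bounds of 0.366 and 0.299 FPKM. With a mean of 0.452 FPKM, Nkx2-2 was under the minimum set for testing, so this check is weak. Where 4 values are given in a row below, their order is control 1, control 2, mutant 1, mutant 2. The colon markers Car1, Cdx2 and Krt20 were high in all 4 libraries, with Cdx2 between 151.7 and 208.6 FPKM, and Hoxb13, a factor of the hindmost gut, was at 0 in 3 of them. The depths of control 2, mutant 1 and mutant 2 were 1.13, 0.464 and 1.03 times that of control 1. Mutant 1 also stood apart in genes that the colon is not known to use: of 1113 olfactory receptor genes, 44.3% were above 0 in mutant 1 and between 2.61% and 3.14% in the other libraries. In limma, 9 of 13997 tested genes (0.0643%) passed an adjusted p of 0.05, 5 higher and 4 lower in the mutants, and 4.82% had an unadjusted p under 0.05. The median over all tested genes was a log2 change of −0.17, which became 0.0056 once the libraries were rescaled by median ratios.

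Ghrl was low but present in control colon and several times higher in both mutants. Its level was 2.09 FPKM in control 1, 2.23 FPKM in control 2, 15.3 FPKM in mutant 1 and 10.8 FPKM in mutant 2. The lowest mutant library stood well above the highest control library, and the controls lay close together while the mutants differed more from each other. The authors' deposited 95% intervals did not meet either, with the highest control bound at 3.51 FPKM in control 2 and the lowest mutant bound at 7.82 FPKM in mutant 2. The group means were 2.16 ± 0.0940 FPKM for the controls and 13.1 ± 3.19 FPKM for the mutants (SD, n = 2 each), a ratio of 6.06. On the scale of log2(FPKM + 0.5), on which changes of low genes come out too small, the change was 2.33, or 2.50 relative to the median gene. Without mutant 1 the log2 change of Ghrl was 2.09. The authors' deposited table, made from counts, has group means of 9.59 normalized counts in controls and 66.4 in mutants, a log2 ratio of 2.79. In a piece of whole colon, more cells with Ghrl RNA and more of it per cell cannot be told apart.

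**Figure D1:**
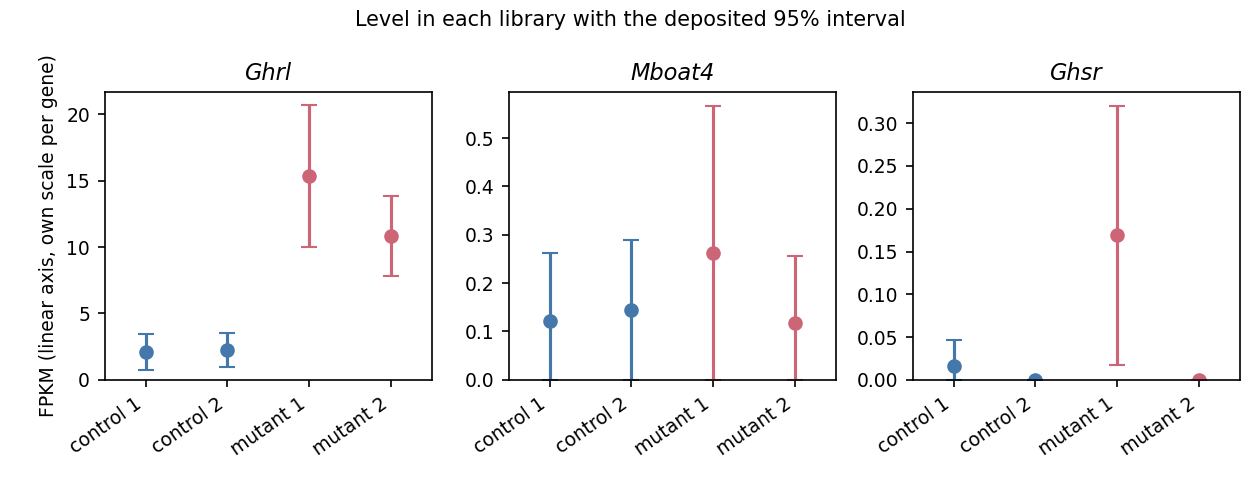
FPKM of Ghrl, Mboat4 and Ghsr in each of the 4 libraries (linear axes, a separate scale for each gene). Points are the deposited estimates and bars the authors' 95% intervals; the 2 Ghrl mutant points, at 15.3 and 10.8 FPKM, lie above the upper control bounds, while the Mboat4 intervals overlap in all libraries.

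The Ghrl values rest on few fragments. The width of a deposited interval gives the number of fragments behind an estimate, and for Ghrl this number was 10 in control 1, 12 in control 2, 33 in mutant 1 and 51.7 in mutant 2. Mutant 1 had the highest FPKM from fewer fragments than mutant 2 because it was sequenced to a lower depth, as 1 fragment of Ghrl was worth 0.451 FPKM there and 0.203 FPKM in mutant 2. Such intervals and fragment numbers cover counting error only. In mutant 1, where silent genes had values, the highest olfactory receptor gene reached 1.35 FPKM. What part such values have in the Ghrl level of that library was not tested.

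Mboat4, the acyltransferase gene, was near the limit of detection in all libraries. It lies on the plus strand of chromosome 8, from 35178084 to 35188239 on mm9, with 3 exons and 1839 bases. Its level was 0.122 FPKM in control 1, 0.144 FPKM in control 2, 0.263 FPKM in mutant 1 and 0.118 FPKM in mutant 2. The mutant libraries lay on both sides of the controls, with mutant 1 the highest library and mutant 2 the lowest. These levels correspond to 3, 4, 3 and 3 fragments in the same order, so the higher FPKM of mutant 1 comes from the same number of fragments in a shallower library. The means were 0.133 ± 0.0157 FPKM for the controls and 0.191 ± 0.102 FPKM for the mutants (SD, n = 2 each). In the authors' deposited table the Mboat4 means are 2.68 and 7.41 normalized counts, a log2 ratio of 1.47, while the log2 change from FPKM was 0.12. With 3 or 4 fragments a library, these values do not settle whether Mboat4 differed beside Ghrl.

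Ghsr, the receptor gene, had almost no fragments. It lies on the plus strand of chromosome 3, from 27270273 to 27276932 on mm9, with 3 exons and 4433 bases, of which 1092 are coding. Its level was 0.0157 FPKM in control 1 and 0.169 FPKM in mutant 1, and it was listed at 0 in control 2 and mutant 2. These values stand for 1 fragment in control 1 and 5 in mutant 1. A count of 0 allows up to 3 fragments, which is 0.0418 FPKM in control 2 and 0.0457 FPKM in mutant 2. The group difference therefore comes from mutant 1, and without it the log2 change of Ghsr was −0.022. The authors' deposited table gives Ghsr means of 0.397 and 6.15 normalized counts, a log2 ratio of 3.95.

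The higher values of Mboat4 and Ghsr in mutant 1 were of the size that silent genes had in that library. In mutant 1 the olfactory receptor genes averaged 0.127 FPKM, and in the other libraries between 0.00541 and 0.00841 FPKM. In mutant 1, 416 of the 1113 olfactory receptor genes (37.4%) were at or above the Ghsr level and 183 (16.4%) at or above the Mboat4 level. In control 1, by contrast, 1.80% of them reached the Mboat4 level of that library. What part the excess of low values has in the Mboat4 and Ghsr values of mutant 1 was not tested.

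**Figure D2:**
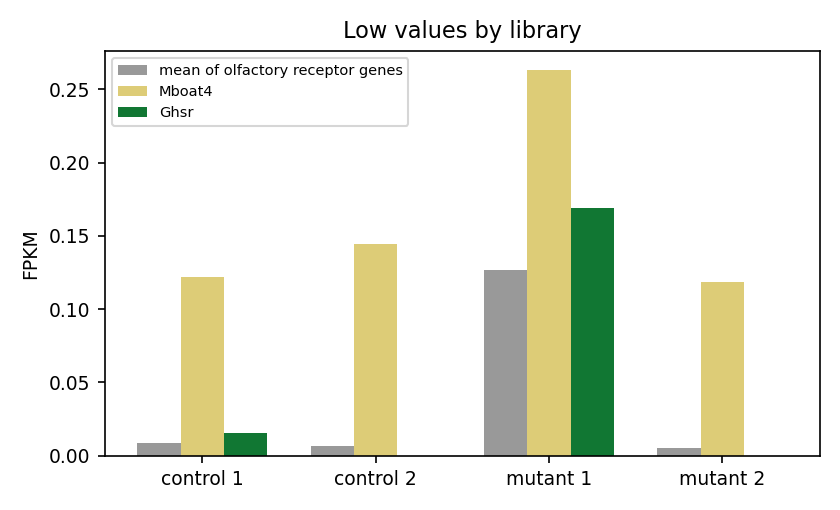
FPKM by library (bars from 0) of Mboat4, Ghsr and the mean of 1113 olfactory receptor genes. All 3 are highest in mutant 1, at 0.263, 0.169 and 0.127 FPKM, and Ghsr has no bar in control 2 and mutant 2, where it is listed at 0.

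The isoform files hold 1 RefSeq transcript for each of the 3 genes, NM_021488 for Ghrl, NM_001126314 for Mboat4 and NM_177330 for Ghsr. The single Ghrl transcript took 100% of the Ghrl estimate in every library, so nothing can be said of splice forms, although GENCODE vM1 lists 3 Ghrl transcripts. Its coverage was 3.19 and 3.83 in control 1 and control 2 and 10.8 and 17.0 in mutant 1 and mutant 2. Coverage is not scaled by depth, and the mutant values were above the control values even so. No other gene of that annotation overlaps any of the 3 genes, on either strand.

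Genes next to Ghrl lay near their control levels in the mutants. The nearest tested genes toward lower coordinates were Tatdn2, at 5051 bases, and Irak2, a kinase of Toll-like receptor signalling, at 21093 bases. Toward higher coordinates they were Sec13, a coat protein of transport vesicles, at 8172 bases and Slc6a11, a GABA transporter, at 411361 bases. Irak2 stood at 15.2, 15.1, 15.2 and 14.9 FPKM, with almost no spread. Sec13 stood at 103.3, 101.8, 89.9 and 112.1 FPKM, the mutants on both sides of the controls. The log2 changes ran from −0.053 for Tatdn2 to 0.14 for Slc6a11, and none passed in limma (adjusted p = 0.938 for Tatdn2, 0.988 for Irak2, 0.960 for Sec13 and 0.892 for Slc6a11).

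**Figure D3:**
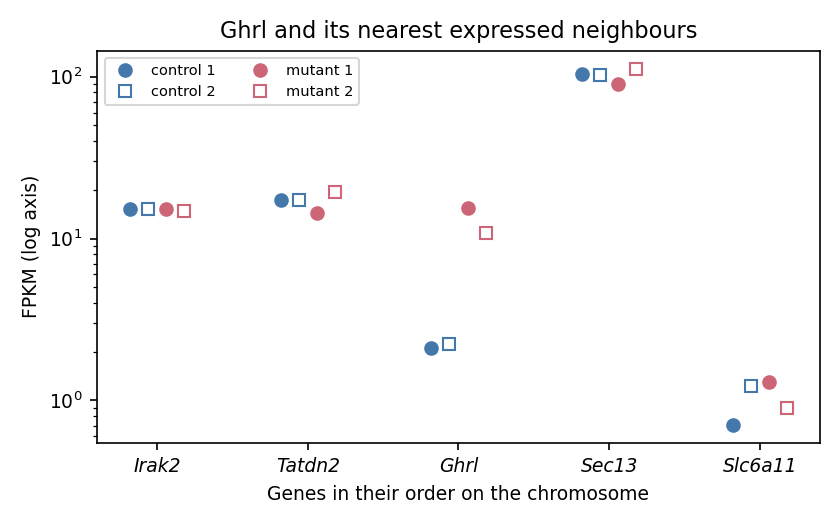
FPKM (log axis) of Ghrl and the nearest tested genes on each side, in chromosome order, for each library (circles replicate 1, open squares replicate 2, blue control, red mutant). Only for Ghrl, of the 5 genes drawn, do both mutant points lie apart above both control points.

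Among the tested genes, 474 of 13997 (3.39%) had both mutant libraries above both controls, and 4917 (35.1%) had both below. Ghrl was one of the 474, as the choice of members fixed. The share was higher, at 8.25%, among 291 other tested genes of 427 to 627 bases, a length near the 527 bases of Ghrl. A log2 change at or above that of Ghrl was found in 19 other tested genes. Of these, 17 encode small RNAs, RNA components of enzymes or microRNAs, 1 is the histone gene Hist1h4d, and 1 is S100z, which encodes a calcium-binding protein of the S100 family. S100z, named after its values were seen, was listed at 0 in both controls and had 1.52 and 3.43 FPKM in the mutants, without passing in limma (adjusted p = 0.129).

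The tested genes with the profile most like that of Ghrl over the 4 libraries were Hist1h3c, Hist1h3h, Hist1h3b, 2010106C02Rik and Hist1h1b. Likeness was the root mean square difference of log2 values after each gene was centred on its own mean, and it ran from 0.28 for Hist1h3c to 0.35 for Hist1h1b. Hist1h3c, a core histone gene, stood at 0.752, 0.992, 5.20 and 3.36 FPKM, with mutant 1 above mutant 2 as for Ghrl. 2010106C02Rik was listed at 0 in both controls and had 1.92 and 0.720 FPKM in mutant 1 and mutant 2. With 4 libraries in 2 groups, such a likeness mostly restates the group difference.

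**Figure D4:**
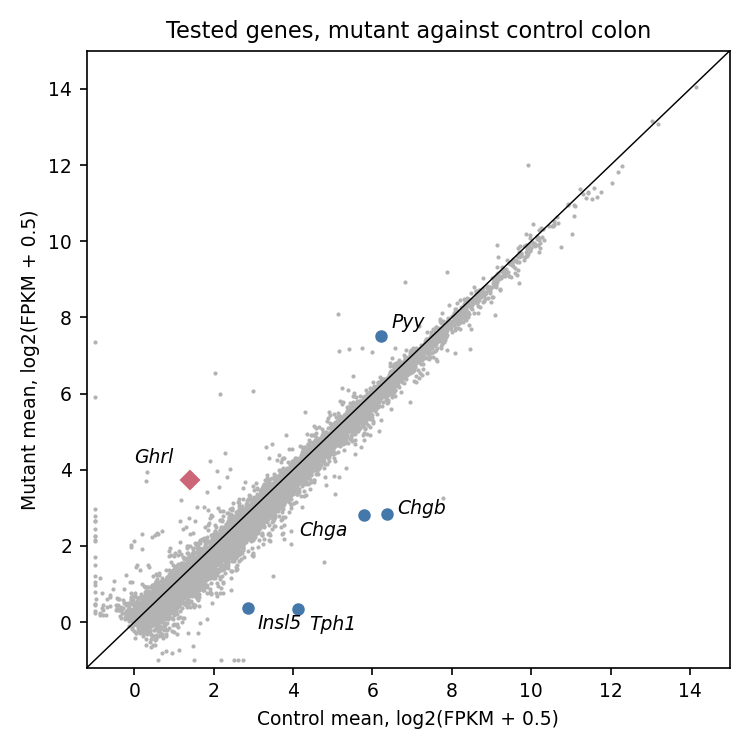
Control mean against mutant mean, on the log2(FPKM + 0.5) scale, for the tested genes (grey points), with the line of equal levels. Ghrl (red diamond) lies above the line by 2.33, and Tph1, Chga, Chgb and Insl5 (blue) lie below it.

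The place of Ghrl among the listed peptide hormone genes differed between the groups. Such a place also depends on the levels of the other genes, and what part they have in the difference was not tested. The guanylin genes Guca2a and Guca2b, whose products act on the gut lining, were left out of this ranking. By FPKM, a level per length, Ghrl was number 16 of the remaining 21 peptide hormone genes in control 1 and number 18 in control 2, but number 9 in mutant 1 and number 10 in mutant 2. In control 1 it stood just under Ppy, the pancreatic polypeptide gene, and in mutant 1 just under the galanin gene Gal at 18.7 FPKM. It made up 0.473% and 0.326% of the summed FPKM of these genes in control 1 and control 2, and 2.49% and 1.84% in mutant 1 and mutant 2. With Guca2a and Guca2b counted, the shares were 0.0895%, 0.0665%, 0.627% and 0.386%. Even in the mutants it therefore stayed a minor hormone message beside Pyy, the peptide YY gene, which had 197.7 and 165.7 FPKM there.

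Ratios within a library are free of its depth and scaling. For Chga, the granin chromogranin A, the level of Ghrl divided by that of Chga was 0.0483 and 0.0319 in control 1 and control 2 and 3.15 and 1.25 in mutant 1 and mutant 2. Ghrl was thus far below Chga in controls and above it in mutants, where Chga itself was lower (log2 change −2.98). For Chgb, also lower in the mutants, the ratio was 0.0305 and 0.0228 in controls and 3.93 and 0.977 in mutants. For Insl5, a hormone of colonic L cells, the ratio was 0.333 and 0.310 in controls and 17.0 and 16.0 in mutants. The mutant ratios rest on low Insl5 values, 0.903 FPKM in mutant 1 and 0.677 FPKM in mutant 2, so their closeness says little. In mutant 1 the highest olfactory receptor gene reached 1.35 FPKM. Insl5 was itself lower in the mutants (log2 change −2.49). For Sst and Gcg, with log2 changes of −0.29 and 0.29 that did not pass, the ratios moved less than for Chga and Insl5. With Sst they were 0.0276 and 0.0343 in controls and 0.282 and 0.181 in mutants. With Gcg they were 0.0339 and 0.0187 in controls and 0.132 and 0.114 in mutants. For Pyy, which was itself higher in the mutants, the ratio was 0.0366 and 0.0230 in controls and 0.0776 and 0.0654 in mutants. For Ppy the ratios of the groups came close, at 0.710 and 0.319 in controls and 0.724 and 1.26 in mutants. Ppy itself was at 2.95, 6.98, 21.2 and 8.59 FPKM. Gal, Ppy, Sst and Gcg were named after their values were seen.

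Of 22 tested genes of the list of other hormones, granins and the serotonin enzyme, 4 passed in limma as lower in the mutants and 0 as higher, against 0.0286% lower and 0.0357% higher of all tested genes. The 4 that fell were Tph1 (log2 change −3.79), Chgb (−3.53), Chga (−2.98) and Insl5 (−2.49), and they were all the lower calls among tested genes. This list was chosen with earlier results of these data known, so its share of calls is a description only. Pyy had a log2 change of 1.28 and did not pass (adjusted p = 0.404). The secretin gene Sct and Guca2a, which encodes the colonic peptide guanylin, were the other abundant members, with log2 changes of −0.23 and −0.16 that did not pass. At an unadjusted p under 0.05 there were 10 genes, 2 higher and 8 lower, where all tested genes had 675 (4.82%), 98 higher and 577 lower. The median log2 change of the list was −0.40 against −0.17 for all tested genes. Both mutants were above both controls in 3 of the 22 (Pyy, Ppy and Adm), against 3.39% of all tested genes. They were below both controls in 10, against 35.1%. Of the list, 0 genes passed with no filter on low values, after median ratio rescaling, after quantile normalization or without mutant 1, Chga and Chgb lost their calls without the variance trend, and Chga and Insl5 lost theirs without mutant 2. Calls were also gained, as without control 2 Pyy and Ppy passed as higher and Tac1 as lower, and without control 1 Npy passed as lower. Tac1, Npy and Adm were named after their values were seen.

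**Figure D5:**
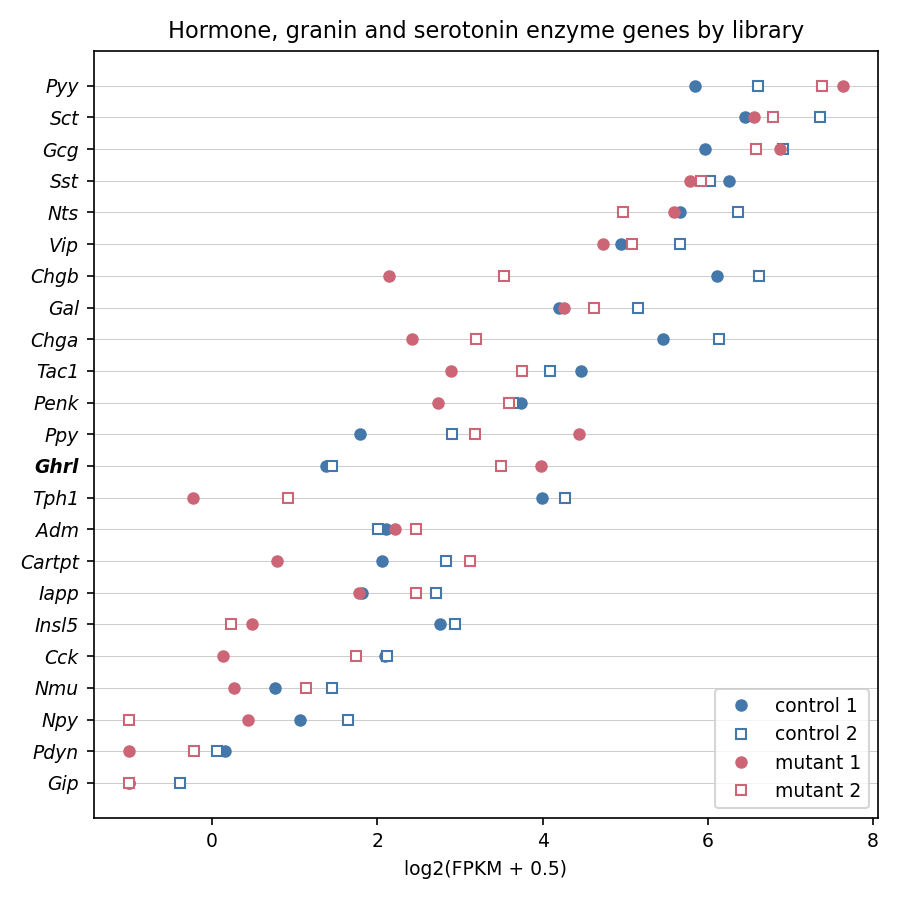
Level of hormone, granin and serotonin enzyme genes in each library, as log2(FPKM + 0.5) (circles replicate 1, open squares replicate 2, blue control, red mutant), ordered by mean. Both mutant points of Ghrl lie to the right of the controls, as do those of Pyy, Ppy and Adm, while those of Tph1, Chga, Chgb and Insl5 lie far to the left.

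Genes that make or break down active ghrelin gave no call. Of 18 genes for precursor cleavage, acyl donors, deacylation, the receptor antagonist and accessory proteins, 14 were tested and 0 passed in limma, with 2 at an unadjusted p under 0.05, both lower, against 4.82% of all tested genes, 577 of those 675 lower. All 14 had negative changes, their median of −0.20 lay close to the −0.17 of all tested genes, and 7 had both mutants below both controls, which held for 35.1% of all tested genes. Lypla1, a thioesterase that removes the acyl group from ghrelin, had 110.4 ± 10.6 FPKM in the control group and 101.0 ± 2.11 FPKM in the mutant group (SD, n = 2 each). Its relative Lypla2 had 75.1 ± 0.954 and 61.1 ± 6.65 FPKM, and Acsl5, a long-chain acyl-CoA synthetase, 62.9 ± 4.24 and 59.0 ± 12.9 FPKM. The 2 genes at an unadjusted p under 0.05, named after their values were seen, were Cpe, which trims prohormones, at 66.4 ± 2.04 and 45.8 ± 3.31 FPKM, and the protease gene Furin, at 21.4 ± 1.19 and 15.4 ± 2.44 FPKM. Also named after their values were seen, Pcsk1, the convertase that cuts proghrelin, was at 13.5, 17.9, 7.06 and 13.5 FPKM. Leap2, which encodes a peptide antagonist of the ghrelin receptor, was listed at 0 in control 2 and mutant 2 and stayed under 0.5 FPKM elsewhere.

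Receptors known from ghrelin cells did not pass either. Of 22 genes, 15 were tested and 0 passed in limma, with a median log2 change of −0.09. At an unadjusted p under 0.05 there were 2, both lower, against 4.82% of all tested genes, most of them lower (577 of 675). These 2 were Ramp1 and Calcrl, which encode the subunits of the receptor for calcitonin gene-related peptide. Ramp1 stood at 23.7, 25.4, 15.3 and 17.1 FPKM, with both mutants under both controls (adjusted p = 0.825). Calcrl, named after its values were seen, had 6.89 ± 1.20 FPKM in the control group and 4.59 ± 0.516 FPKM in the mutant group (SD, n = 2 each). The fatty acid receptor genes O3far1 and Ffar2 had 33.1 ± 4.69 and 24.9 ± 7.18 FPKM and 11.4 ± 3.55 and 10.5 ± 1.09 FPKM, with overlapping libraries in each. Adrb1, the adrenergic receptor through which noradrenaline releases ghrelin, was named after its values were seen and stood at 0.727, 0.748, 0.689 and 0.790 FPKM, a log2 change of 0.0011.

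Of 23 transcription factor genes of ghrelin cells and their relatives, 14 were tested and 0 passed in limma, with a median log2 change of −0.09. At an unadjusted p under 0.05 there was 1, a lower one, against 4.82% of all tested genes, and without control 2 Hhex passed as lower. That gene at an unadjusted p under 0.05, named after its values were seen, was Foxa2, a forkhead factor of gut endoderm, at 4.60, 4.69, 2.39 and 2.62 FPKM (adjusted p = 0.825). Among the most abundant were Foxa1, with 34.3 ± 3.65 FPKM in the control group and 28.4 ± 6.20 FPKM in the mutant group, and Gfi1, with 7.51 ± 0.0742 and 5.79 ± 0.0394 FPKM (SD, n = 2 each). Both mutants were below both controls in 3 of the 14 tested genes, against 35.1% of all tested genes, and above both in 1, against 3.39%. That 1 gene was Isl1, at 0.0573, 0.482, 0.987 and 0.639 FPKM (adjusted p = 0.825), and what part the excess of low values in mutant 1 has in it was not tested. Hhex and Isl1 were named after their values were seen.

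Markers of other organs and of some cell types were read in the same libraries, among them those of the stomach, for which ghrelin is best known. Of 10 stomach genes, 3 (Tff1, Gkn1 and Gast) were at 0 in all libraries, and their summed level was 0.248, 0.529, 0.819 and 0.130 FPKM. The acid pump genes Atp4a and Atp4b stayed at or under 0.0727 FPKM in every library, and both were at 0 in mutant 1. Another 4 stomach genes were above 0 in mutant 1 alone, Gif at 0.324, Gkn2 at 0.252, Pgc at 0.122 and Muc5ac at 0.121 FPKM. In control 1, control 2 and mutant 2 most of the stomach sum was Gkn3, at 0.228, 0.404 and 0.110 FPKM. The 8 pancreas genes summed to 29.1, 33.8, 31.2 and 22.5 FPKM, nearly all of it the elastase gene Cela1 at 29.1, 33.7, 30.1 and 22.5 FPKM. The insulin genes Ins1 and Ins2 were at 0 in 3 libraries and at 0.177 and 0.403 FPKM in mutant 1. The summed level of 9 upper small intestinal genes, most of it Fabp2, was 462.3, 814.1, 773.2 and 836.6 FPKM. The 9 genes of enteric neurons and glia summed to 45.7, 42.3, 23.8 and 34.3 FPKM, and 5 general enteroendocrine genes to 185.3, 243.7, 60.0 and 76.2 FPKM, lower in both mutants each time. Of these 5, Chga and Chgb were much lower in the mutants, while Neurod1 stood at 1.54, 2.37, 2.44 and 2.11 FPKM. Whether such differences in marker levels reflect cell make-up, and what part they have in the Ghrl values, was not tested.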

How the data were processed

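Colon RNA of 2 control and 2 mutant samples was sequenced from TruSeq RNA libraries, as the labels' protocols state. TopHat, Cufflinks, DESeq, bcl2fastq 1.8.4 and mm9 are named in the submitters' processing notes, and filters are not given in the sources used here. Per the file headers, the authors deposited FPKM with a 95% interval for 23699 gene rows and 30028 transcripts, and a coverage signal per transcript. Their table of the series holds, per the file headers, mean normalized counts per group (a signal), the fold ratio between the groups and its log2, and p-values. Those p-values were not used.

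Rows without an OK status in every library (306) were left out, and rows of 1 symbol were summed. limma 3.58.1 in R 4.3.3 was run on log2(FPKM + 0.5) for the 13997 genes averaging 0.5 FPKM or more, using a variance trend and Benjamini-Hochberg adjustment over all of them, after the code was tested on simulated data. No count model was used, as FPKM are no counts. Fragments behind a value were computed as 4 times the squared ratio of the FPKM to the upper half-width of its interval, and of such numbers under 50, in genes with 1 isoform, 86.6% to 87.6% lay within 0.05 of a whole number. Relative depth is the median ratio of coverage to FPKM against control 1. Coordinates are mm9, counted from 1. Motif shares come from RefSeq windows on GRCm38.p6.

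The members and lists were chosen with earlier results of these data known. Beside the 3 members and Nkx2-2, the genes named are those called and the 3 most abundant of each pathway list, the 2 nearest tested genes on each side of Ghrl, and the 5 with the closest profile. Some genes that this rule names are left out. The other genes are said to be named after their values were seen, apart from markers. Of 89 pathway genes, 88 were matched by symbol. Alternatives covered the pseudocount, the filter, scaling, the variance trend, row status, the replicate number and each library left out.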

Additional observations from a re-analysis of the deposited data

How the results depend on the processing

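The log2 change of Ghrl, a gene chosen for this difference, ran from 2.09 to 2.57 among the alternatives computed from FPKM and was 2.79 in the authors' deposited table. The replicate block and the row status could not move it by construction. For Mboat4 the log2 change was 0.27 with a pseudocount of 0.1, −0.055 after quantile normalization and 1.47 in the authors' deposited table, and leaving out 1 library gave −0.034 to 0.27. For Ghsr it was 0.61 with a pseudocount of 0.1 and 3.95 in the authors' deposited table, and leaving out 1 library gave −0.022 to 0.40. The directions of Mboat4 and Ghsr therefore are not settled by these files. The cause of the gaps to the authors' deposited table was not tested.

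The number of genes that passed in limma, 9 as reported, was 2 with no filter, 3 after median ratio rescaling and 3 after quantile normalization, all of them higher in the mutants. It was 8 to 356 with 1 library left out, the highest without control 2. Of the pathway list genes, 4 passed as reported, 0 with no filter, after median ratio rescaling or after quantile normalization, 2 without the variance trend, and 0 to 8 with 1 library left out, 0 without mutant 1, 2 without mutant 2 and 8 without control 2. A library left alone in its group is assumed to vary like the other group. With the replicate block 195 genes passed, 9 of them on the pathway lists, with Pyy and Ppy (2) higher and 7 lower. Deviations of same-numbered libraries from their group means correlated at −0.00217 over 13997 genes. With 2 libraries in each group this sets 1 difference against another, so it cannot decide whether the labels' numbers mark a pairing. Rescaling turned the share of tested genes with a change below 0 from 82.6% to 48.8%. The cause was not tested. Depth limits Mboat4 and Ghsr, at 3 to 4 and 0 to 5 fragments a library.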
